A study of Homo sapiens with 6 samples.

Results

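The comparison described here is the step from 1 to 5 ng/mL TGF-β1 in BEAS-2B cells, read as 3′-end counts of messenger RNA after 48 h. It uses 2 of the 6 libraries of the study, 1 at each dose, and leaves the untreated library out of the ratio. Both libraries were picked by their labelled cell line and dose. BEAS-2B is an immortalised line of human bronchial epithelial cells, labelled here as wild type (WT). The treated cultures received TGF-β1 for 48 h in RPMI1640 with 1% fetal bovine serum, after growth in 10% serum, and whether the untreated culture was also changed to 1% serum was not given in the sources used here. The other 4 libraries were untreated BEAS-2B cells and A549 cells, a lung carcinoma epithelial line, without TGF-β1 and at 1 and 5 ng/mL.

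The BEAS-2B libraries at 0, 1 and 5 ng/mL held 4252712, 4601813 and 4120624 counts over the same 25737 entries. After scaling, the 5 ng/mL library was 0.893 times the size of the 1 ng/mL library, so a gene at an equal level gives fewer counts there. A gene entered a comparison when its scaled (normalized) count reached 127 in at least 1 of the 2 libraries, which is a value of 7 on a log2(normalized count + 1) scale (ND). The study set a normalized log2 value (ND) of 7 without giving a formula or the libraries it applied to, so the scale and the rule of at least 1 library are a reading of it. This left 6306 entries with 6304 gene symbols. A count of 0 still allows 0.652 CPM (the count scaled to a common library total) at 1 ng/mL and 0.728 at 5 ng/mL. With 1 library per dose, the difference between 2 cultures cannot be told apart from the effect of the dose, and no p-value is given. The intervals below are exact 95% Clopper-Pearson intervals of the count ratio and cover counting error alone. No molecular identifiers separate PCR copies from molecules, so the reads are not fully independent.

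TGF-β1 is a secreted cytokine that binds a pair of serine-threonine kinase receptors on the cell surface. The activated receptors phosphorylate SMAD2 and SMAD3, which join SMAD4, enter the nucleus and switch on genes of the extracellular matrix, of the cytoskeleton and of the pathway's own inhibitors. In airway epithelium the pathway is known for pushing cells toward a mesenchymal state, with loss of junction proteins and deposition of matrix.

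The cell type label was set against marker genes first. Of 12 bronchial epithelial markers, 5 passed the minimum, namely KRT7, KRT8, KRT17, KRT18 and ITGB4. KRT5, KRT14, TP63, EPCAM and CDH1, which define basal and junction-forming airway epithelium, had 0 to 2 counts in each BEAS-2B library. Of 8 fibroblast markers, 4 passed the minimum (THY1, FAP, PDPN and PDGFRB), while PDGFRA had 0 counts in all 3 libraries. The summed level of the fibroblast list was 335, 428 and 501 CPM at 0, 1 and 5 ng/mL. None of the 6 endothelial, 6 blood and 10 alveolar markers passed the minimum, and PTPRC, CD3E and SFTPC were at 0. The part of the fibroblast markers in the differences below was not tested.

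Raising the dose moved few genes. At least 2-fold, 31 of 6306 genes were higher at 5 ng/mL (0.492%) and 26 were lower (0.412%), which together is 0.904%. This count of 57 depended on how the minimum was read, since it was 188 at an ND value of 6, 26 with the minimum on the mean, 11 with it in both libraries and 3 on a log2(CPM + 1) scale. At least 1.5-fold, 263 were higher (4.17%) and 306 lower (4.85%). The log2 ratio had a median of 0.01 and an SD of 0.35 over genes, and 95% of genes lay between -0.71 and 0.70. A change of less than 1.25-fold was found for 4259 genes (67.5%).

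The steps that share a library with this one are given only beside it. From 0 to 1 ng/mL, 378 genes were at least 2-fold higher and 610 lower out of 6681 (14.8%), with an SD of 0.84. From 0 to 5 ng/mL the counts were 494 and 783 out of 6735 (19.0%), with an SD of 0.94. In A549 cells, which share no library with BEAS-2B, the step from 1 to 5 ng/mL passed 2-fold in 220 of 6467 genes (3.4%), with an SD of 0.46.

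Most of the genes past 2-fold sat near the minimum level. The higher of the 2 counts was under 300 in 28 of the 31 higher genes and in 24 of the 26 lower genes. Among genes with a mean level of 9 to 10 on the ND scale (1083 genes) and of 10 to 12 (772 genes), 0 passed 2-fold. At 12 and above, 2 of 163 did, RNU4ATAC and MTRNR2L8. The spread was wider than counting error gives at every level. The SD of the log2 ratio was 0.37 at a mean level of 7 to 8, where counting alone gives 0.17, and 0.29 at 12 and above, where counting alone gives 0.027. The counting interval lay above 1 for 1575 genes (25%) and below 1 for 1407 (22.3%).

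**Figure D1:**
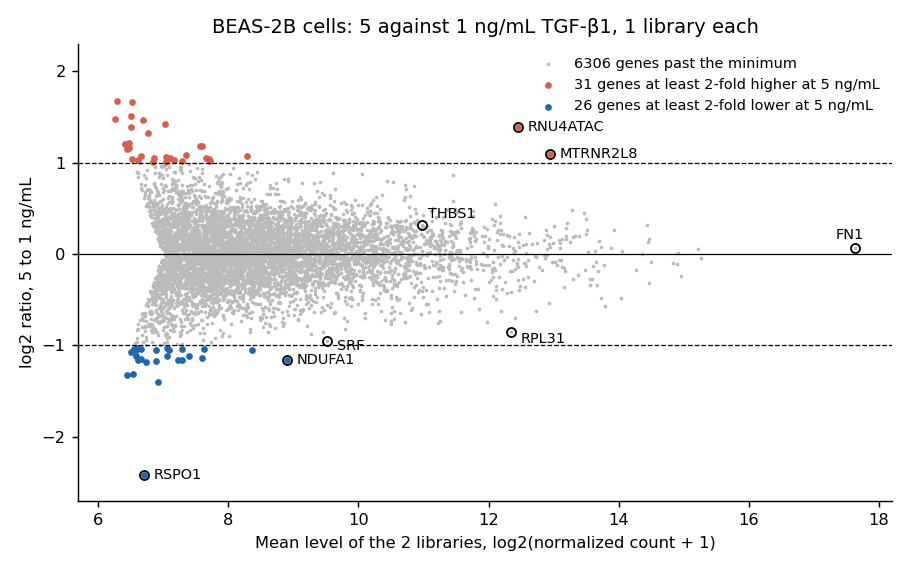
Each point is 1 of 6306 genes in BEAS-2B cells; the x axis is the mean ND value of the 2 libraries and the y axis the log2 ratio of 5 to 1 ng/mL, with dashed lines at 2-fold. The 31 higher (red) and 26 lower (blue) genes lie mostly at the left edge, and FN1, the most abundant gene shown, lies at 0.06.

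The 13 genes that rank in any of the study's lists of leading genes of its protein network, called core genes here, differed by less than 1.5-fold between the doses. Their median log2 ratio was 0.05, their range -0.24 to 0.34, and 0 of 13 passed 1.5-fold in either direction. Over all genes 9.02% passed 1.5-fold, so a count of 0 in a short list, here or below, does not set it apart. From 0 to 1 ng/mL all 13 were at least 2-fold higher, with a median of 2.85. The study chose this list on these libraries, so its direction against the untreated cells is not independent evidence. Together the 13 genes took 5755, 58277 and 59258 CPM at 0, 1 and 5 ng/mL.

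FN1 encodes fibronectin, the matrix glycoprotein through which integrins hold the cell to its surroundings. It had 11970, 177656 and 165701 counts at 0, 1 and 5 ng/mL, which was 0.281%, 3.86% and 4.02% of each library. Between the doses it differed by a ratio of 1.04 (interval 1.04 to 1.05). COL1A1, the main chain of type I collagen, had 2398, 27154 and 24485 counts and a ratio of 1.01 (0.992 to 1.03). For both genes the large difference lay between 0 and 1 ng/mL, and the dose step was within 5% of no change in the main scaling. Under quantile normalization, an alternative described below, COL1A1 had a log2 ratio of 0.28 between the doses.

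COL5A1, a fibril-forming collagen chain, had 1201, 8361 and 8502 counts and was 1.14-fold higher at 5 ng/mL (1.10 to 1.17). THBS1, thrombospondin 1, a matrix protein that can activate latent TGF-β, had 714, 1601 and 1781 counts and was 1.25-fold higher (1.16 to 1.33). VCAN, the proteoglycan versican, went furthest of the 13, with 43, 617 and 698 counts and a ratio of 1.27 (1.14 to 1.41). These 3 genes were a little higher at the upper dose, by more than counting error and by less than the SD over all genes.

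Others of the 13 were a little lower at 5 ng/mL. TGFBI, a secreted adhesion protein named for its induction by TGF-β, had 4298, 30715 and 23154 counts and was 1.19-fold lower (1.17 to 1.21). MMP2, a gelatinase, had 177, 2598 and 2004 counts and was 1.16-fold lower (1.09 to 1.23), and ITGA5, a fibronectin receptor subunit, had 322, 1119 and 864 and was 1.16-fold lower (1.06 to 1.27). The interval of COL4A1 (ratio 0.943) held 1. COL4A2 (0.959, a basement membrane collagen like COL4A1) and CDH2 (1.07, N-cadherin) had intervals that just left 1 out.

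**Figure D2:**
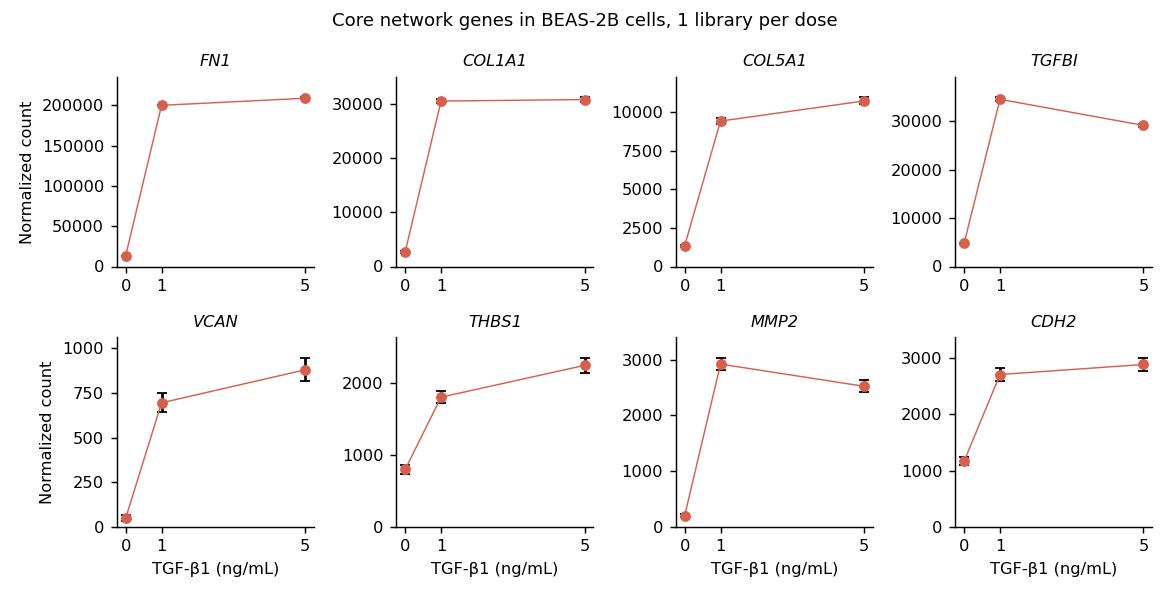
Normalized counts (y axis) of 8 of the 13 core genes in BEAS-2B cells against the dose of TGF-β1 in ng/mL (x axis); each point is 1 library, lines join doses, and bars are 95% counting intervals. Each panel climbs between 0 and 1 ng/mL and is close to level between 1 and 5 ng/mL, with FN1 at 177656 and 165701 raw counts and TGFBI 1.19-fold lower.

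The signalling layer of the pathway was as flat. Of 19 ligand, receptor and latency genes, 12 passed the minimum and 0 passed 1.5-fold, with a median of 0.10. TGFB1 had 57, 256 and 246 counts, a ratio of 1.08 with an interval from 0.899 to 1.29, and TGFBR1, the type I receptor, had 222, 341 and 280 counts and a ratio of 0.919 (0.782 to 1.08). Neither differed between the doses by more than counting error.

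Of 18 SMAD and feedback genes, 13 passed the minimum and 0 passed 1.5-fold, with a median of 0.17 against 0.56 from 0 to 1 ng/mL. SKI, a co-repressor that holds SMADs inactive, had 557, 1310 and 1674 counts and was 1.43-fold higher at 5 ng/mL (1.33 to 1.54). SMAD7, the inhibitory SMAD, had 15, 125 and 118 counts and a ratio of 1.06 (0.815 to 1.37). SMAD2 had 474, 284 and 330 counts and was 1.30-fold higher (1.11 to 1.53), while SMURF1, a ubiquitin ligase that acts on SMADs and receptors, had 65, 180 and 123 counts and a log2 ratio of -0.38. So the inducible inhibitor SMAD7 stood at its 1 ng/mL level, and SKI was the feedback gene that stood furthest above it.

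Early target genes behaved in the same way. Of 24, 20 passed the minimum, 1 was at least 1.5-fold higher and 1 lower, and their median of 0.06 compared with 2.17 from 0 to 1 ng/mL, where 17 were at least 2-fold higher. TPM1, tropomyosin 1 of the actin filament, had 2991, 17667 and 19738 counts and was 1.25-fold higher (1.23 to 1.28). PMEPA1, a membrane protein that dampens TGF-β signalling, had 489, 10397 and 9453 counts and a ratio of 1.02 (0.990 to 1.05). ITGB3, the integrin β3 subunit, had 50, 74 and 108 counts and was 1.63-fold higher (1.20 to 2.23). CYR61, a matricellular protein also induced by YAP, moved the other way, with 1629, 163 and 85 counts and a further 1.71-fold lower value at 5 ng/mL (1.31 to 2.25). Both genes past 1.5-fold were among the low counts of the list.

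On the BMP side of the family 1 gene passed 1.5-fold. ID3, an inhibitor of basic helix-loop-helix factors and a standard BMP target, had 445, 197 and 97 counts and was 1.81-fold lower at 5 ng/mL (1.42 to 2.34). Of the 22 ID, BMP, activin and antagonist genes, 10 passed the minimum and their median was -0.04. INHBA, the activin A subunit, had 45, 1351 and 1054 counts and was 1.15-fold lower (1.06 to 1.24).

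Matrix genes outside the core list gave the same picture with a few exceptions. The 13 collagen chains past the minimum, of 29, had a median of 0.08 against 2.41 from 0 to 1 ng/mL. COL1A2, the partner chain of COL1A1 in type I collagen, was counted far less often than COL1A1, at 20, 68 and 111, and was 1.83-fold higher at 5 ng/mL (1.34 to 2.51). COL16A1, a fibril-associated collagen, had 11, 157 and 86 counts and was 1.63-fold lower (1.25 to 2.15). The other 11 chains stayed within 1.5-fold.

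Of 42 matrix glycoproteins and proteoglycans, 24 passed the minimum, with a median of 0.06, and 2 were at least 1.5-fold lower while 0 were higher. SPARC, osteonectin, a collagen-binding glycoprotein, had 3168, 7523 and 4354 counts and was 1.54-fold lower at 5 ng/mL (1.49 to 1.60), so its level at 5 ng/mL lay between those at 0 and 1 ng/mL. EFEMP1, fibulin 3, had 747, 493 and 252 counts and a ratio of 0.572 (0.490 to 0.667). BGN, biglycan, had 97, 4611 and 4300 counts and a ratio of 1.04 (1.00 to 1.09).

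Proteases and their inhibitors had a median of -0.01 over the 12 of 32 genes past the minimum. MMP14, a membrane-bound collagenase that activates MMP2, had 79, 154 and 236 counts and was 1.72-fold higher at 5 ng/mL (1.39 to 2.12). MMP24, another membrane-bound metalloproteinase, had 391, 329 and 195 counts and was 1.51-fold lower (1.26 to 1.81). PLAUR, the urokinase receptor, had 829, 544 and 339 counts and was 1.43-fold lower (1.25 to 1.65). Genes for collagen processing and crosslinking (17 of 23 past the minimum, median -0.04) included 0 past 1.5-fold.

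Cytoskeletal and mesenchymal genes leaned upward between the doses. Of 22, 16 passed the minimum, 13 were above 0 and 3 below, the median was 0.16, and 10 had a counting interval above 1, or 2 below, where over all genes 25% and 22.3% did. CNN1, calponin of contractile cells, had 43, 118 and 168 counts and was 1.59-fold higher (1.25 to 2.03). MYL9, the regulatory light chain of non-muscle and smooth muscle myosin, had 758, 1204 and 1617 and a log2 ratio of 0.59. FLNA, filamin A, which crosslinks actin, had 5070, 7491 and 9335 and was 1.39-fold higher (1.35 to 1.44). TAGLN, transgelin, had 208, 1786 and 1370 counts and was 1.16-fold lower (1.09 to 1.25), so the step was not shared by all contractile genes.

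The 10 of 20 transcription factors and partners of epithelial-mesenchymal transition past the minimum had a median of 0.26, with 9 above 0 and 1 below. Over all 6304 genes, 3224 were above 0. The counting interval lay above 1 in 5 of the 10 and held 1 in 5. RUNX1, a Runt factor that cooperates with SMADs, had 227, 321 and 508 counts and was 1.77-fold higher (1.54 to 2.04). MAF, a basic leucine zipper factor, had 0, 95 and 145 counts and was 1.71-fold higher at 5 than at 1 ng/mL (1.31 to 2.24). ZEB1, a repressor of E-cadherin, had 134, 137 and 166 counts and was 1.36-fold higher (1.08 to 1.71). TCF4 had 128, 262 and 328 counts and was 1.40-fold higher (1.19 to 1.66).

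Epithelial junction and differentiation genes were scarce, with 8 of 35 past the minimum, and their median of 0.30 was the highest of any list with at least 5 members past it. PKP1, a desmosomal plakophilin, had 72, 109 and 184 counts and was 1.89-fold higher at 5 ng/mL (1.48 to 2.42). DSG2, a desmosomal cadherin, had 126, 138 and 199 counts and was 1.61-fold higher (1.29 to 2.02). Of the 8, 6 were above 0 and 2 below. At least 1.5-fold, 2 were higher and 1 was lower, with a lowest log2 ratio of -0.77. The junction genes past the minimum thus did not all move in 1 direction.

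**Figure D3:**
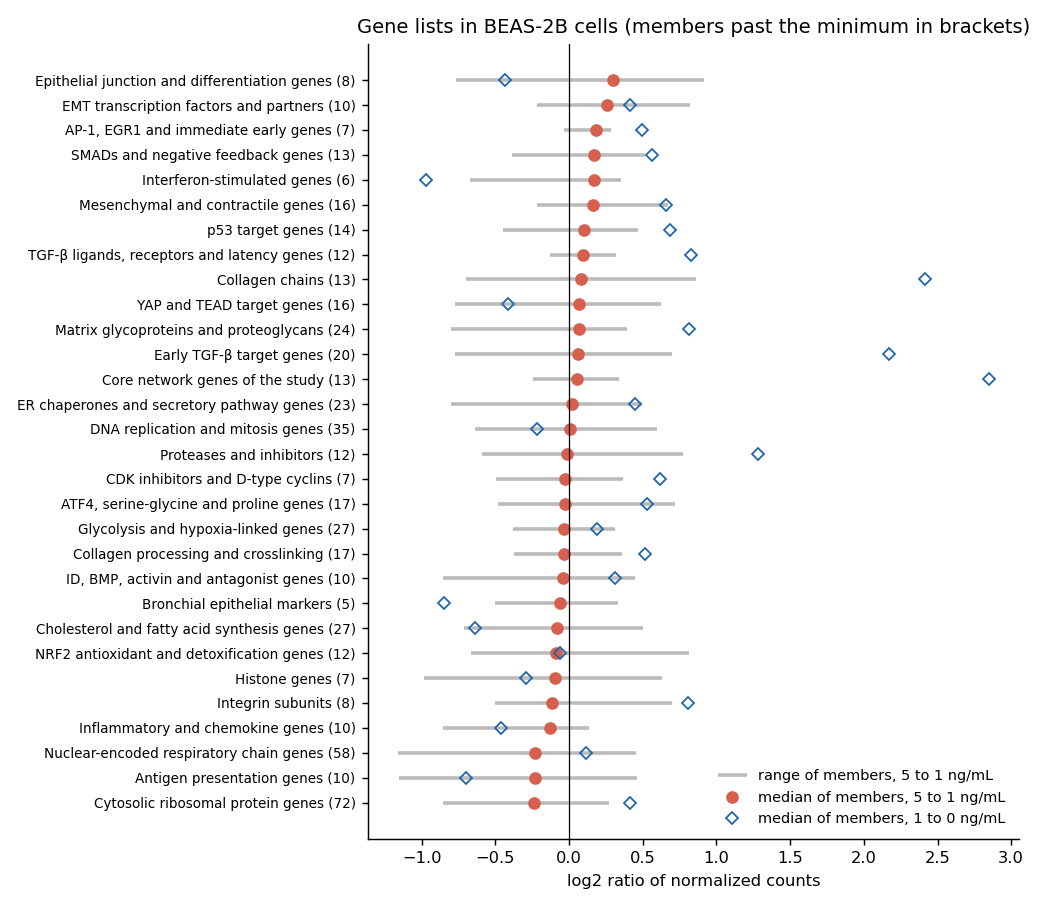
For the 30 gene lists with at least 5 members past the minimum, red dots mark the median log2 ratio of 5 to 1 ng/mL over members, grey bars the range of members, and open blue diamonds the median log2 ratio of 1 to 0 ng/mL; the number of members is in brackets. All red dots lie between -0.24 and 0.30, while the diamonds of the core, collagen and early target lists lie at 2.85, 2.41 and 2.17.

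Genes of cell growth, defence and metabolism were described by the same counts. The 35 replication and mitosis genes past the minimum had a median of 0.01, with FOXM1 (456 and 262 counts at 1 and 5 ng/mL) and E2F1 (887 and 510) at least 1.5-fold lower and BUB1B (226 and 306) higher. Of 10 inflammatory genes past the minimum, 9 were below 0, where 3080 of all 6304 genes were. Their median was -0.13, and the counting interval lay below 1 in 4 and held 1 in 6. The furthest was SOD2, the mitochondrial superoxide dismutase, at 1173, 385 and 190 counts and 1.81-fold lower (1.52 to 2.17). The 10 antigen presentation genes had a median of -0.23, with PSMB10, an immunoproteasome subunit, at 153, 198 and 79 counts and 2.24-fold lower (1.72 to 2.94), and ERAP1, a peptide-trimming protease, at 334, 165 and 78 and 1.89-fold lower (1.44 to 2.51).

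Cholesterol and fatty acid synthesis genes had a median of -0.08 over 27 genes, with SCD, the desaturase that makes monounsaturated fatty acids, at 1942, 1547 and 841 counts and 1.64-fold lower (1.51 to 1.79). Glycolysis genes had a median of -0.04 over 27 genes, with 0 past 1.5-fold. TXNRD1, thioredoxin reductase, of the NRF2 list had 393, 99 and 156 counts and was 1.76-fold higher (1.36 to 2.29). Of the 12 genes of that list past the minimum, 5 were above 0 and 7 below (median -0.09). ATF5 of the amino acid response list had 169, 101 and 149 counts and a log2 ratio of 0.72. Of the 17 genes of that list past the minimum, 7 were above 0 and 10 below (median -0.03). Of 7 histone genes past the minimum, 3 were above 0 and 4 below, with a median of -0.10. H2AFX, the histone of DNA damage foci, had 278, 185 and 83 counts and was 1.99-fold lower (1.53 to 2.61), while HIST1H1C was 1.55-fold higher (1.42 to 1.69). In 28 of these 30 lists no member passed 2-fold in either direction, where 0.904% of all genes did.

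The 31 genes at least 2-fold higher at 5 ng/mL ran from 2.02-fold for SIL1 to 3.24-fold for PCDHGB7, and the counting interval excluded 1 in all 31 and excluded 2-fold in 7. From 0 to 1 ng/mL, 29 of the 31 had moved by less than 2-fold. None of the 31 belonged to any of the 35 gene lists. Only 0.492% of all genes past the minimum were this much higher, so the absence does not set the lists apart. Of the 27 matched to the GENCODE annotation of GRCh38, 24 were protein-coding, and the 27 lay on 17 chromosomes. The build behind the counts is hg19, so the GRCh38 positions given here say where a gene lies and not which interval was counted.

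RNU4ATAC and MTRNR2L8 had the highest counts of this set. RNU4ATAC encodes U4atac, a small nuclear RNA of the minor spliceosome, and lies on chromosome 2 from 121530881 to 121531007 on the plus strand, inside CLASP1 on the opposite strand and in an intron of AC012447.1 on the same strand. It had 1211, 3063 and 7184 counts, so its counts were higher at each dose, and 2.63-fold higher at 5 than at 1 ng/mL (2.52 to 2.74). These counts may include reads of the overlapping genes, and whether the small RNA itself was counted was not tested. MTRNR2L8, a nuclear near-copy of the mitochondrial 16S ribosomal RNA, had 3798, 4776 and 9104 counts and was 2.13-fold higher (2.06 to 2.21). Reads of MTRNR2L8 can come from the mitochondrial gene or its other copies, so its identity is uncertain.

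The largest ratios rested on low counts. PCDHGB7, a γ-protocadherin of cell contacts, had 66, 38 and 110 counts, a 3.24-fold difference (2.22 to 4.82), and lay below the untreated level at 1 ng/mL (log2 ratio -0.77) and above it at 5 ng/mL (0.90). It overlaps 21 genes on the same strand with which it shares its 3′ exons, so its counts may include theirs. TRMT1, a tRNA guanine methyltransferase, had 50, 45 and 129 counts and was 3.21-fold higher (2.27 to 4.61). TMED8, a member of the family of vesicle cargo receptors, had 58, 54 and 135 counts and was 2.80-fold higher (2.03 to 3.91). Both stood near their untreated level at 1 ng/mL and above it at 5 ng/mL.

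PPM1M, a PP2C-type phosphatase, had 49, 40 and 101 counts and a ratio of 2.83 (1.94 to 4.19), C12orf4 had 60, 60 and 136 and 2.54 (1.86 to 3.50), and CDK3, a cyclin-dependent kinase, had 116, 113 and 231 and 2.29 (1.82 to 2.89). PDCL, a chaperone of G protein subunits, had 96, 51 and 107 counts, and ELMSAN1, a scaffold of a histone deacetylase complex, had 163, 49 and 102. The 5 ng/mL level of PDCL was thus near the untreated level and that of ELMSAN1 below it, and the 2-fold step reflected a low value at 1 ng/mL in both. TFAMP1, a processed pseudogene of the mitochondrial transcription factor TFAM (61, 47 and 121 counts), can share reads with its parent gene, and SPACA6P had 63, 49 and 116 counts.

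RSPO1 stood apart among the 26 genes at least 2-fold lower. It encodes R-spondin 1, a secreted protein that strengthens Wnt signalling, and lies on chromosome 1 from 37611350 to 37634923 on the minus strand. It had 289, 214 and 35 counts at 0, 1 and 5 ng/mL, 5.46-fold lower at 5 than at 1 ng/mL (3.81 to 8.05), and it was the only 1 of the 26 whose interval excluded 2-fold. The drop from 0 to 1 ng/mL was small beside it, with a log2 ratio of -0.42. In A549 cells RSPO1 had 184 and 92 counts at 1 and 5 ng/mL, a ratio of 0.660 (0.508 to 0.853), just under the minimum.

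The other 25 decreases ran from 2.06-fold for SPCS1, a signal peptidase subunit, to 2.66-fold for SMUG1. SMUG1, a uracil-DNA glycosylase of base excision repair, had 110, 173 and 58 counts (interval of the fold 1.97 to 3.65). SNHG5, a noncoding host gene of small nucleolar RNAs, had 106, 129 and 46 counts and was 2.51-fold lower (1.78 to 3.59). RNASEH1-AS1, transcribed opposite RNASEH1, had 59, 122 and 43 counts, and since the strand setting of the counting is not given in the sources used here, its reads cannot be separated from those of its partner. SMUG1, SNHG5 and RNASEH1-AS1 were all above the untreated level at 1 ng/mL and below it at 5 ng/mL. Against the untreated library, the interval of SNHG5 at 1 ng/mL (0.942 to 1.60) held 1. That of RNASEH1-AS1 at 5 ng/mL (0.542 to 1.24) did too.

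EMC8, of the endoplasmic reticulum membrane insertion complex, had 163, 141 and 55 counts (2.29-fold lower, 1.67 to 3.19), and HADHB, of mitochondrial fatty acid oxidation, had 204, 157 and 62 (2.26-fold, 1.68 to 3.09). DTX3, a ubiquitin ligase of the Deltex family, had 243, 129 and 51 counts (2.26-fold, 1.62 to 3.19) and was lower at each dose. RPA3, of the single-strand DNA binding complex, had 170, 133 and 53, TAF9, of TFIID and SAGA, 298, 255 and 103, and CNIH2, an AMPA receptor partner, 78, 206 and 82. CNIH2 thus lay near its untreated level again, while the others ended below it.

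Over the 26, 4 were already at least 2-fold lower from 0 to 1 ng/mL, 3 were at least 2-fold higher there and 19 moved less. BCAR3, an adaptor of integrin signalling, had 325, 116 and 49 counts, GLE1, an mRNA export factor, 915, 418 and 180, and ATP5C1, a subunit of ATP synthase, 416, 198 and 86. These 3 were lower at each dose. SNORD50A, a small nucleolar RNA whose host gene is SNHG5, was among the 31 higher genes, with 37, 70 and 169 counts and a ratio of 2.70 (2.03 to 3.62), the opposite direction of its host. Whether these reads came from the small RNA or from its host was not tested.

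Genes of the cytosolic ribosome were lower at 5 ng/mL as a group. Of 73 ribosomal protein genes, 72 passed the minimum, 59 were below 0 and 13 above, and their median log2 ratio was -0.24. The counting interval lay below 1 in 54 and above 1 in 9, where over all genes 22.3% and 25% did. At least 1.5-fold, 11 were lower and 0 higher, against 4.85% and 4.17% of all genes. Their share of all counts was 8.60%, 10.3% and 9.21% at 0, 1 and 5 ng/mL, so the upper dose lay between the untreated and the 1 ng/mL library. From 0 to 1 ng/mL the median was 0.41. The counts are relative to the library, and in bulk RNA a change in every cell and a change in a part of the cells cannot be told apart. These genes have many processed pseudogenes that can take up reads.

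RPL31, of the large subunit, was the furthest, with 4733, 6212 and 3071 counts and a 1.81-fold lower level at 5 ng/mL (1.73 to 1.89). RPL11, a large subunit protein that also binds MDM2, had 2432, 2764 and 1463 counts and was 1.69-fold lower (1.58 to 1.80), and RPL4 had 3018, 1937 and 1036 and was 1.67-fold lower (1.55 to 1.80). RPS2 of the small subunit had 3757, 6150 and 3383 counts and was 1.62-fold lower (1.56 to 1.69), and RPS15A had 1694, 1699 and 929 and was 1.63-fold lower (1.51 to 1.77). At counts of this size the intervals were narrow and all 5 lay below 1.

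Ribosomal protein genes are known for a pyrimidine tract at the transcription start, through which their translation is controlled. Runs of at least 6 bases C or T were counted where they touched the stretch from 5 bases before to 10 after the start. They were found in 47 of the 57 ribosomal genes matched to RefSeq promoters (82.5%). The share was 25.7% of all matched genes past the minimum and 25.9% of all 27305 promoters. The windows around the start of the 5 ribosomal genes with the largest decrease among those matched are shown first, and then those of the 3 matched respiratory genes with the largest decrease, described next. They are 30 bases from RefSeq (GRCh38.p14), 5′ to 3′ on the transcribed strand. The longest run that touched that stretch is in capitals, and the run of RPL4 goes on beyond its window.
RPL31 (chr2:101002274-101002303, plus strand): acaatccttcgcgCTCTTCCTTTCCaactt
RPL11 (chr1:23691764-23691793, plus strand): cgcctcctggcccataaggCCCTCggccgg
RPL4 (chr15:66504841-66504870, minus strand): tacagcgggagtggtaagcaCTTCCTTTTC
RPS27 (chr1:153990747-153990776, plus strand): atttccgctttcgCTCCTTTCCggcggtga
RPL36 (chr19:5690280-5690309, plus strand): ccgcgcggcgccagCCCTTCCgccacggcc
NDUFA1 (chrX:119871817-119871846, plus strand): gcgggcggccgcggggCTTgctgggaagag
ATP5C1 (chr10:7788162-7788191, plus strand): cgcgctgaggcctgcctgaccgaCCTTCag
COX7B (chrX:77899453-77899482, plus strand): gctgaaagccattttgTTTTTCagctcact
RPL31 and RPL4 carry runs of 12 bases, RPS27 of 9, RPL36 of 7 and RPL11 of 5, and COX7B has 6, ATP5C1 5 and NDUFA1 3. RPS27 had 526, 1218 and 698 counts and RPL36 had 2711, 3359 and 1940.

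Genes for the respiratory chain also leaned lower at 5 ng/mL. Of 61 nuclear genes for its subunits and the ATP synthase, 58 passed the minimum, 46 were below 0 and 12 above, and the median was -0.23. The counting interval lay below 1 in 32 and above 1 in 3, against 22.3% and 25% over all genes. At least 1.5-fold, 9 were lower and 0 higher, against 4.85% and 4.17% of all genes, and 13 of 49 matched promoters (26.5%) had a run of at least 6 pyrimidines. NDUFA1, a small subunit of complex I, had 813, 632 and 252 counts and was 2.24-fold lower at 5 ng/mL (1.93 to 2.60). COX7B, of cytochrome c oxidase, had 773, 837 and 415 counts and was 1.80-fold lower (1.60 to 2.03), COX6A1 had 730, 1034 and 557 and a ratio of 0.603 (0.543 to 0.669), and NDUFA12, of complex I, had 304, 277 and 151 and was 1.64-fold lower (1.34 to 2.01). The summed level of the list was 12283, 12039 and 10181 CPM at 0, 1 and 5 ng/mL.

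Both gene groups have short transcripts, with medians of 671 and 611 bases against 927 over all genes. Genes split by length into 4 groups of like size had median log2 ratios of -0.00, 0.00, 0.01 and 0.02 from the shortest to the longest. In A549 cells the same groups had -0.005, 0.008, 0.018 and 0.060. The part of length in the values of the 2 lists was not tested. In A549 cells the same lists had medians of -0.24 (ribosomal) and -0.13 (respiratory). In A549 cells alone, 56 of 72 ribosomal and 37 of 58 respiratory genes were lower at the upper dose, against 46.9% of all genes past the minimum in both lines. In both lines, 50 of 72 ribosomal and 30 of 57 respiratory genes were lower, against 1578 of all 5463 genes (28.9%). This joint count includes the BEAS-2B direction already described, so it is raised by that direction alone. Whether the lists differ between the lines was not tested.

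**Figure D4:**
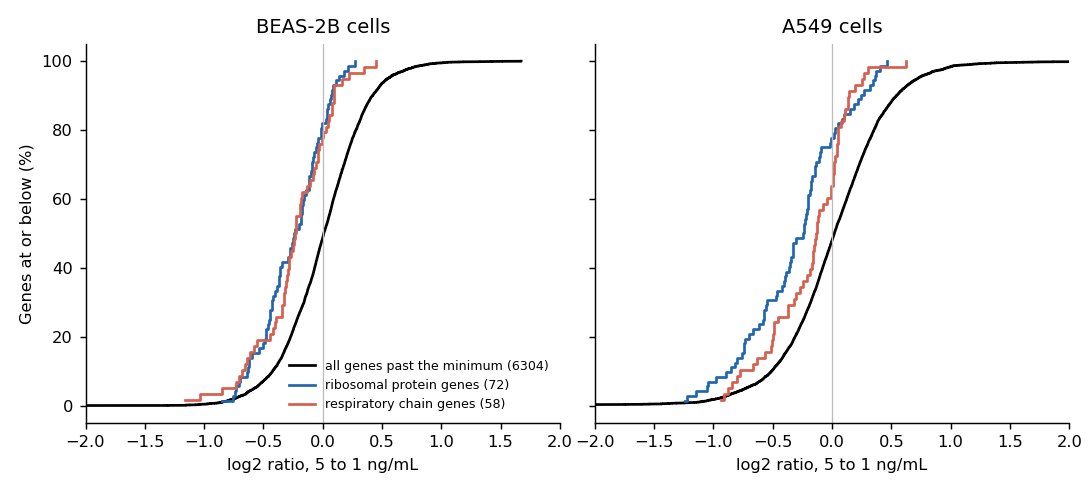
Cumulative share of genes (y axis, %) at or below a log2 ratio of 5 to 1 ng/mL (x axis) in BEAS-2B (left) and A549 cells (right), for all genes past the minimum in black, ribosomal protein genes in blue and respiratory chain genes in red. In BEAS-2B cells both coloured curves lie left of the black curve, with medians of -0.24 and -0.23 against 0.01.

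The same step in A549 cells used other libraries, so it shows which BEAS-2B differences recurred in a second line. Of the 26 lower genes, 15 passed the minimum in A549 cells, 13 of them were lower there with an interval below 1, and their median log2 ratio was -0.65. Over all 5463 genes past the minimum in both lines the interval lay below 1 in 27.8%, and the median was 0.03. SNHG5 was the only gene at least 2-fold apart in the same direction in both, with 1994 and 749 counts in A549 cells and a log2 ratio of -1.01. NDUFA1 had 2288 and 1011 counts there (-0.78), ATP5C1 561 and 231 (-0.88) and HPRT1, of purine salvage, 260 and 125 (-0.65). AFMID, of tryptophan breakdown (172 and 68, -0.93), and SMUG1 (122 and 102, 0.14) lay under the minimum there, and PSMB10 (207 and 161, 0.04) had an interval that held 1.

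Of the 31 higher genes, 19 passed the minimum in A549 cells, 13 were higher and 6 lower, and their median was 0.33. The interval lay above 1 in 9 and below 1 in 1, against 34.4% above over all 5463 genes, so the higher genes recurred less plainly, a difference between the directions that was not tested. RNU4ATAC had 1021 and 1538 counts in A549 cells (log2 ratio 0.99), TMED8 100 and 141 (0.89) and TBC1D25, a Rab GTPase regulator, 157 and 198 (0.73). MTRNR2L8 had 27761 and 20666 counts there (-0.02), and AKT1S1, the mTORC1 partner PRAS40, was lower (452 and 274, -0.32) though 2.04-fold higher in BEAS-2B cells. No gene was at least 2-fold apart in opposite directions in the 2 lines.

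The wider set gave more members. Among genes past the minimum in both lines, 179 were at least 1.5-fold higher in BEAS-2B cells, of which 65.4% were higher in A549 cells with a median of 0.20. Of 224 at least 1.5-fold lower, 83.0% were lower in A549 cells with a median of -0.36. Across all 5463 genes the steps of the lines had a Pearson r of 0.34 and a Spearman rho of 0.34, a description over genes, which are not independent replicates. The lines share no library, but all 6 were scaled together.

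**Figure D5:**
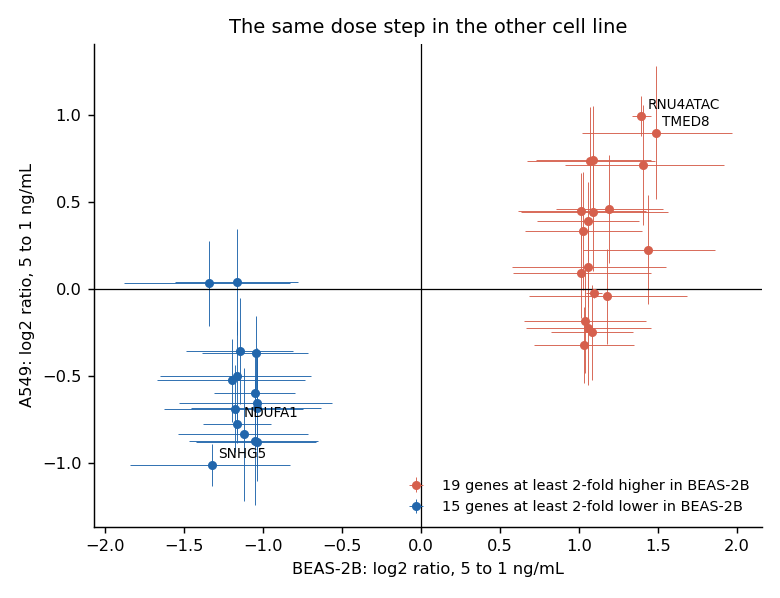
Log2 ratio of 5 to 1 ng/mL in BEAS-2B (x axis) and in A549 cells (y axis) for the genes at least 2-fold apart in BEAS-2B cells that passed the minimum in A549 cells, 19 higher in red and 15 lower in blue; bars are 95% counting intervals. Most blue points lie below 0 on the y axis, with SNHG5 at -1.01, and red points spread to both sides of it.

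A set of responding genes was chosen by its change in A549 cells at 1 against 0 ng/mL. The minimum here was a mean ND value of 7 over the BEAS-2B libraries at 0, 1 and 5 ng/mL. The untreated library thus took part in this minimum, and a gene high only there could enter. For the 576 past it that were at least 2-fold higher in A549 cells, the BEAS-2B median was 0.43 from 0 to 1 ng/mL. It was 0.58 from 0 to 5 ng/mL and 0.12 between the doses, with 68.9% above 0. For the 344 at least 2-fold lower, the medians were -0.78, -0.95 and -0.12, with 63.1% below 0 between the doses. Over all 5969 genes compared, the step had a median of 0.00 with 50.5% above 0. The medians of both sets thus lay slightly further from the untreated level at 5 than at 1 ng/mL in BEAS-2B cells. The shares give the direction of the step and not each gene's distance from its untreated level. CCDC80, with 10054, 5205 and 5439 counts, was above 0 in the step yet nearer its untreated level at 5 ng/mL.

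The 10 with the largest increase in A549 cells differed by -0.22 to 0.27 between the doses in BEAS-2B cells. ITGA11, a collagen-binding integrin subunit, had 0, 1621 and 1353 counts and a ratio of 0.934 (0.869 to 1.01), and SPOCK1, a matrix proteoglycan, had 491, 3684 and 3965 and a ratio of 1.21 (1.15 to 1.26). Of the 10 with the largest decrease, 7 were lower again at 5 ng/mL, but MGST3, CYB5A and SH3BP4 among them lay under the minimum at both doses, and the interval of CYB5A held 1. CFB, complement factor B, had 627, 117 and 63 counts and was 1.66-fold lower (1.21 to 2.29), TMSB4X, the actin-binding thymosin β4, had 1835, 216 and 130 and was 1.48-fold lower (1.19 to 1.86), and RCC2, a mitotic regulator, had 780, 162 and 248 and was 1.71-fold higher (1.40 to 2.10). The 10 increases thus lay close to their 1 ng/mL level and the decreases spread from -2.42 (RSPO1) to 0.81 (TXNRD1), and the sets were not compared by a test.

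The promoters of the genes at least 2-fold apart were searched for the SMAD-binding letters CAGACA on either strand, in RefSeq windows from 250 bases before to 50 after the start. They occurred in 4 of 22 matched higher genes (18.2%) and 1 of 19 matched lower genes (5.26%), against 11.2% of matched genes past the minimum and 16.8% of all promoters. The palindrome GTCTAGAC occurred in 0 of both sets and in 0.201% of all promoters. The 2 matches shown are from a gene higher at 5 ng/mL, SIL1, a chaperone partner of the endoplasmic reticulum, and from TPM1, described above, in 30 bases of GRCh38.p14 with the match in capitals (TGTCTG is the same letters on the other strand).
SIL1 (chr5:139198589-139198618, minus strand): ttgttggaaaatCAGACAggaaacttcgca
TPM1 (chr15:63048375-63048404, plus strand): ccgcctgcggttTGTCTGcgcagccctgga
A match is a stretch of letters and not a shown binding site, and its share did not set the dose-step genes apart from other promoters in this count.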

How the data were processed

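The values that the authors deposited are whole-number read counts per gene entry, not normalized, from QuantSeq 3′ libraries of total RNA, with 1 library for each of 6 conditions. The submitters' processing notes name Bowtie2, bedtools and the build hg19, without versions, and the study's methods name ExDEGA for the quantification. Filters and strand settings are not given in the sources used here. Totals ran from 4120624 to 7841350 counts.

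Counts were scaled with TMM factors (edgeR 4.0.16, R 4.3.3) over the 6 libraries to their mean effective size. Ratios and their intervals are of scaled counts, and log2 ratios use a pseudocount of 1. Genes were called at folds of 2 and 1.5 where 1 or both of the 2 libraries reached an ND value of 7. No test between conditions was run, since neither edgeR nor DESeq2 can estimate a spread from 1 library a side. Replicates were not available, so leaving out a library was not possible. The steps were tested on simulated counts. Other steps used Python 3.11.15 with pandas 2.3.3 and scipy 1.17.1.

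Named genes are the 12 largest changes in each direction, up to 4 leading members of each of 35 lists, the 13 core genes (those in any of the study's 3 rankings of its protein network), and up to 10 genes in each direction with the largest change in A549 cells. Other named genes (AFMID, AKT1S1, BCAR3, GLE1, HPRT1, MTRNR2L8, SIL1, TBC1D25 among the genes past 2-fold, and TGFB1, TGFBR1, SMAD7, PMEPA1, BGN, RPS2, RPS15A, RPS27, RPL36 and NDUFA12 among list members) were chosen after their values were seen, and some genes under the rule are not reported here. Members and lists were chosen with earlier results of these data known. Positions and transcript lengths came from GENCODE (GRCh38), matched by symbol, with lengths known for 99.3% of genes. Alternatives were DESeq2 1.42.0 size factors, total counts, upper quartile and quantile scaling (limma 3.58.1), TMM on 2 libraries, a filter of at least 10 counts, pseudocounts of 0.1 and 5, thinning, summed entries, other minimums and other folds, and 2 chosen after seeing the data (a minimum of 10 and removal of the transcript length trend).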

Additional observations from a re-analysis of the deposited data

Results flagged for a closer look

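COL1A2 and E2F1, both past the minimum in each cell line, had dose steps of at least 1.5-fold in opposite directions in the 2 lines. Their counting intervals excluded 1 in each line. They are named as examples, and all such genes are not counted here. COL1A2, a chain of type I collagen, had a log2 ratio of 5 to 1 ng/mL of 0.86 in BEAS-2B cells (68 and 111 counts) and of -2.24 in A549 cells (343 and 54 counts). E2F1, a transcription factor of the G1 to S transition, had -0.63 in BEAS-2B cells (887 and 510 counts) and 0.61 in A549 cells (298 and 345 counts). MYL9, described above, also went in opposite directions, with intervals that excluded 1, but lay under the minimum in A549 cells. Its log2 ratio was 0.59 in BEAS-2B cells (1204 and 1617 counts) and -2.56 in A549 cells (54 and 6 counts). Each line had 1 library per dose, and the difference between the lines was not tested.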

How the results depend on the processing

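The number of genes past a fold depended on the minimum level, while the flat step of the pathway and matrix lists did not depend on the scaling. Genes at least 2-fold apart (57, of which 31 higher and 26 lower) numbered 3457 (1837 and 1620) with no minimum, 188 (92 and 96) at a minimum of 6, 12 (8 and 4) at 8, 11 (7 and 4) with the minimum in both libraries, 26 (15 and 11) with it on the mean, 3 (2 and 1) with 7 on log2(CPM + 1), and 2 (2 and 0) at a minimum of 10. A fold of 1.5 gave 569 (263 and 306) and of 3 gave 3 (2 and 1). Quantile normalization left 17 lower genes. Of the 57, 40 stayed past 2-fold under quantile normalization, 49 after thinning and 56 or 57 under the other 5 scalings and filters, with the same sign for 57 in all 7. Genes at least 1.5-fold apart (569) numbered 5563, 1073, 240, 294 and 47 with no minimum, at 6, at 8, in both libraries and at 10. The SD of the log2 ratio was 0.72 with no minimum.

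The A549 median of the higher genes was 0.18 with total counts and 0.52 with quantile normalization, and that of the lower genes -0.51 with quantile normalization. Among lists, glycolysis genes had -0.17 and histone genes 0.067 with no minimum, histone genes 0.019 at a minimum of 6, and bronchial markers 0.28 at 8 and 0.11 with the minimum in both libraries. In the main setting the histone (-0.098) and bronchial (-0.058) medians were below 0, so their sign changed in these settings. The medians of the ribosomal (-0.24) and respiratory (-0.25 to -0.23) lists kept their size. Of 186 named genes, 11 moved by more than their counting interval, 10 of them under quantile normalization. COL4A2, below 0 in the main setting, had a log2 ratio of 0.020 under quantile normalization. COL1A1 had 0.28 there, against 0.013 in the main setting. The causes were not tested, beyond that a lower minimum admits genes with few counts. No paired analysis was possible because each BEAS-2B dose has 1 library, and for the same reason no library could be left out. A fit over both cell lines with line and dose as terms would ask about a shared dose effect and was not run.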

Other observations

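The ND value of 1019 genes reached 10 (a normalized count of 1023) at 1 or both doses, where counting error is small. Of these, 18 were at least 1.5-fold higher and 29 lower. Members of the ribosomal list made up 11 of the 29 and 67 of the 1019. RPL36AL, a ribosomal protein gene outside that list, was also among the 29 and was 1.76-fold lower. The genes named here were chosen after their values were seen. SRF, the serum response factor that drives immediate early and actin genes, had 1514, 910 and 419 counts at 0, 1 and 5 ng/mL and was 1.94-fold lower at 5 than at 1 ng/mL. HINT1, a nucleotide hydrolase, had 7608, 2672 and 1551 counts and CTNNB1, β-catenin, 1476, 1968 and 1165, which are 1.54-fold and 1.51-fold lower. In A549 cells the log2 ratios of SRF, HINT1 and CTNNB1 were -0.23, -0.97 and -0.08.

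Of the 18 higher genes, HNRNPM, a splicing regulator, had 2299, 1853 and 3022 counts and was 1.83-fold higher, and ACIN1, of the exon junction complex, had 738, 693 and 1140 and was 1.84-fold higher. SLC39A7, a zinc transporter of the endoplasmic reticulum, had 453, 510 and 842 counts (1.85-fold), SEC31A, of the COPII coat, 580, 933 and 1305 (1.57-fold), and RAB5C, of early endosomes, 1067, 1272 and 1905 (1.68-fold). KRT81, a hair keratin, had 139, 1202 and 1661 counts (1.55-fold). SPDL1, of the mitotic spindle checkpoint, and UBE2Z, a ubiquitin-conjugating enzyme, were 1.64-fold and 1.55-fold higher in BEAS-2B cells, with log2 ratios of 1.24 and 1.26 in A549 cells.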
